A study of Homo sapiens with 33 samples.

Results

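The dual base editor SpACE was compared with the full-size adenine base editor ABEmax in HEK293T cells, a human embryonic kidney line, with a guide RNA to the gene RNF2 in both groups. The comparison rests on 6 of the 33 RNA-seq libraries of the study, 3 for each construct. It covers 14613 of the 26475 gene symbols in the count table, those with enough reads to be tested, and no gene was chosen by its value. Cells of the SpACE group had received a plasmid for SpACE and cells of the ABEmax group a plasmid for ABEmax. In both groups the editor plasmid also encoded EGFP, a second plasmid carried the RNF2 guide, and GFP-positive cells were sorted 36 to 40 h after transfection. The comparison group nCas9 received the Cas9 nickase without a deaminase and the same guide, in 3 libraries, and the labels name it a negative control. Levels are also given for miniABEmax-V82G and Target-AID with the RNF2 guide, for all of these constructs with a guide to HEKsite2, and for GFP with no guide, in 3 libraries each. The constructs were expressed from plasmids for a short time, and the amount of each editor protein in the sorted cells was not measured here. The column names of SpACE carry UGI, which the labels of its samples do not mention, so whether the construct includes it is not settled.

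A base editor joins a nickase form of Cas9, which the guide RNA brings to a DNA site, to a deaminase that changes a base there. ABEmax carries a wild-type and an evolved unit of the adenosine deaminase TadA, which turns adenine into inosine, and inosine is read as guanine. SpACE combines the smaller adenosine deaminase of miniABEmax-V82G with the cytidine deaminase of Target-AID on a single nickase. Deaminases of base editors are known to act on RNA as well as on DNA. The counts used here give the amount of RNA per gene and hold no base changes. RNF2 encodes the RING-type ubiquitin ligase of Polycomb repressive complex 1, which marks histone H2A at silenced genes.

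Total counts ran from 8461440 to 9601841 in the SpACE libraries and from 7419401 to 8116856 in the ABEmax libraries, so every SpACE library was deeper than every ABEmax library. All 8 markers kept to check the kidney line had counts. They were the keratin genes KRT8 and KRT18, VIM, NEFM, NEFL, LHX1, CDH2 and the kidney transcription factor PAX2. Enough reads to be tested were found for 7 of them, and PAX2 was not among these. The summed level of the 8 was 665 to 765 CPM in SpACE and 612 to 660 CPM in ABEmax. CPM stands for counts scaled to a common library size and expressed per 1e+06 counts. The 8 liver markers summed to at most 0.899 CPM in either group, with APOC3 at 0 in both. Sums of the 8 mesenchymal markers were 13.9 to 15.5 CPM in SpACE and 15.9 to 17.5 CPM in ABEmax, and those of the 8 blood markers 0.592 to 1.33 CPM and 1.45 to 2.18 CPM. COL1A2, DCN and PTPRC were at 0 in the SpACE libraries and HBA2 was at 0 in the ABEmax libraries. The part of depth and of these small marker sums in the results was not tested. Replicate 1 of SpACE and replicate 3 of ABEmax stood apart from the other replicates of their groups, with a chi-square per degree of freedom of 4.25 to 5.02 and 3.26 to 3.64 against their partners, where the remaining pairs had 1.77 and 1.65. No label states whether replicates came from separate cultures, so p-values measure only the spread between these libraries. In bulk RNA, fewer cells with a transcript and less of it per cell cannot be told apart.

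The promoters of 3 genes are shown because their genes were among the 12 largest falls in SpACE at a usable level and fell with both guides. Each sequence is the 300-base window from 250 bases before to 50 bases after the gene start in RefSeq on GRCh38.p14, written 5′ to 3′ on the strand of the gene. Capitals mark every match, on either strand, to one of 6 short motifs: the heat shock element core GAANNTTC, the C/EBP-ATF composite core TGATGNAA, the cAMP response element TGACGTCA, the CCAAT box, the TATA box TATAAA and the GC box GGGCGG.
NRP2, chr2:205682251-205682550, plus strand: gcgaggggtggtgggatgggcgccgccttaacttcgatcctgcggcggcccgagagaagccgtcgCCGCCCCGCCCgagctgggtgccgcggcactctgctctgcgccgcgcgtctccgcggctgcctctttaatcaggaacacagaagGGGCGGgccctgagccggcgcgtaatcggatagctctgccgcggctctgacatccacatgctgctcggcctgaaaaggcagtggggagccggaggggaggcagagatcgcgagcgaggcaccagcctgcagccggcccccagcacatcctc
MAST3, chr19:18109926-18110225, plus strand: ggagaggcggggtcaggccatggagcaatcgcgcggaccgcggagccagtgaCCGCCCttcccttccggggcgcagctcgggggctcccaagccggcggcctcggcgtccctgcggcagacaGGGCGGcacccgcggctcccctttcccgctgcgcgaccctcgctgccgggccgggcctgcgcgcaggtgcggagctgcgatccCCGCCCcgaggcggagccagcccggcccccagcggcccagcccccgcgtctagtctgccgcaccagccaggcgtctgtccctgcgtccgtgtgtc
FRMD4A, chr10:14008501-14008800, minus strand: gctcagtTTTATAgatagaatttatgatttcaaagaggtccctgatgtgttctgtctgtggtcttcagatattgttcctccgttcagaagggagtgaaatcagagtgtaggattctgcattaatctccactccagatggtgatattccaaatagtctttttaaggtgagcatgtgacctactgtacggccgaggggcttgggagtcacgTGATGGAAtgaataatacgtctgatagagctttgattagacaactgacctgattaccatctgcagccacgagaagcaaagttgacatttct
The windows of NRP2 and MAST3 hold 3 GC boxes each, and 70.0% and 77.7% of their bases are G or C, where the median of all promoters is 58.3%. That of FRMD4A holds 1 composite core and 1 TATA box, with 42.3% G or C. Of the 12 largest falls 10 had an entry, and a GC box was found in 4, a CCAAT box in 2, a TATA box in 2 and a composite core in 1. None of the 10 held the heat shock core or the cAMP response element. Among all 27305 promoters of the same length, 44.6% held a GC box, 35.7% a CCAAT box, 12% a TATA box, 3.67% the composite core, 6.87% the heat shock core and 1.98% the cAMP response element. The windows of all 3 genes lie inside the span that GENCODE 29 gives these genes, so other start sites exist for them. A match is a description of the letters in the window.

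The comparison of SpACE with ABEmax asks how the transcriptome under the dual editor differs from that under a full-size adenine editor aimed at the same site. By edgeR's quasi-likelihood test with Benjamini-Hochberg adjustment, 1908 of 14613 genes differed at an adjusted p under 0.05, which is 13.1% of the genes tested. Of these, 901 were higher in SpACE (6.17%) and 1007 were lower (6.89%). Large differences lay mostly on one side. A difference of at least 2-fold was seen in 116 genes that were lower in SpACE (0.794%) and in 11 that were higher (0.0753%). The median log2 fold change over all genes tested was -0.003. Against nCas9 with the same guide, 2150 genes were called in SpACE (14.7%), 1174 higher (8.03%) and 976 lower (6.68%), and 1632 in ABEmax (11.2%), 951 higher (6.51%) and 681 lower (4.66%). These comparisons share the nCas9 libraries with each other and the editor libraries with the main comparison, so their values are only set side by side. In ABEmax 85 genes were at least 2-fold above nCas9 (0.582%), and in SpACE 33 were (0.226%). In the other direction, 17 genes were at least 2-fold below nCas9 in ABEmax (0.116%) and 91 in SpACE (0.623%). Leaving out replicate 1 of SpACE lowered the number of genes called to 1049, leaving out replicate 3 of ABEmax lowered it to 1035, and without both it was 741, with 278 higher and 463 lower. All 1908 genes kept their sign without both libraries, and 673 of the 741 were among them. The libraries that remained had also entered the fit that picked the 1908 genes. That selection favours both results, so they are only a description.

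**Figure D1:**
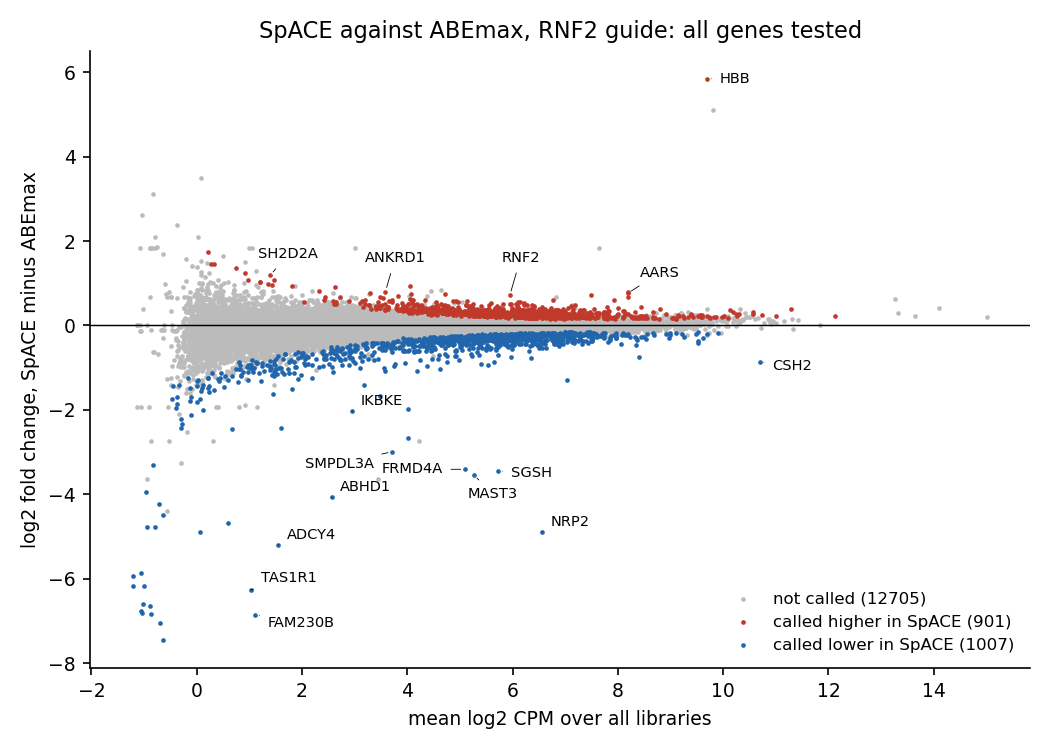
Log2 fold change of SpACE against ABEmax with the RNF2 guide (vertical) by mean log2 CPM over all libraries (horizontal), 1 point per gene tested. Red points are the 901 genes called higher in SpACE and blue points the 1007 called lower, and the genes furthest from 0 at levels above 1 on the log2 scale, such as NRP2 at -4.89, lie below 0, while HBB at the top rests on 1 library.

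A set of transcripts stood higher in cells with ABEmax and near the nickase level in cells with SpACE. Of the 116 genes lower by at least 2-fold, 95 had their highest mean in ABEmax among the 6 groups SpACE, ABEmax, nCas9, miniABEmax-V82G and Target-AID with the RNF2 guide and GFP. In 39 of them ABEmax stood at least 2 times above the next group, and in 27 at least 4 times. These genes were picked for a low SpACE or high ABEmax mean, so the counts are a description. Of the 11 genes higher by at least 2-fold, 0 had their highest mean in ABEmax, which their selection fixed in advance.

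NRP2 encodes neuropilin 2, a co-receptor for semaphorins and vascular growth factors, and lies at chr2:205681990-205798133. Its level was 13.1, 14.04 and 13.5 CPM in the 3 SpACE libraries, 416, 270.1 and 522 CPM in the 3 ABEmax libraries and 11.8, 12.97 and 13.2 CPM in the 3 nCas9 libraries. Every ABEmax library was far above every SpACE and nCas9 library, and SpACE and nCas9 lay in the same range. The log2 fold change of SpACE against ABEmax was -4.89 ± 0.15 (adjusted p = 1.49e-26), and that of SpACE against nCas9 was 0.10 ± 0.212 (adjusted p = 0.807). SGSH, which encodes the lysosomal sulfohydrolase that removes sulfate from heparan sulfate, lies at chr17:80206716-80220923. It was measured at 21.3, 18.02 and 18.2 CPM in SpACE, 214, 179 and 236 CPM in ABEmax and 14.03, 14.2 and 16.4 CPM in nCas9. The groups SpACE and ABEmax did not overlap, with a log2 fold change of -3.45 ± 0.103 (adjusted p = 1.37e-26). All 3 SpACE libraries also lay above the 3 nCas9 libraries, at 0.37 ± 0.138, which missed the threshold (adjusted p = 0.0623).

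MAST3, a microtubule-associated serine/threonine kinase gene at chr19:18097793-18151692, had 9.92, 13.4 and 13.8 CPM in SpACE and 131, 124 and 178 CPM in ABEmax. FRMD4A, a scaffold gene of epithelial polarity at chr10:13643706-14462142, had 10.6, 12.5 and 11.5 CPM in SpACE and 113, 112 and 142 CPM in ABEmax. In both genes the lowest ABEmax library was several times above the highest SpACE library, and the nCas9 means of 13.7 and 11.3 CPM lay in the SpACE range. They fell in SpACE by 3.55 ± 0.12 and 3.41 ± 0.142 on the log2 scale (adjusted p = 5.54e-25 and 8.81e-22). SMPDL3A, a phosphodiesterase related to acid sphingomyelinase, stood at 6.72, 6.41 and 5.45 CPM in SpACE and 48.2, 39.9 and 60.6 CPM in ABEmax, a log2 fold change of -2.99 ± 0.147. IKBKE, the gene of the innate immune kinase IKK epsilon, stood at 4.27, 4.86 and 5.57 CPM and 18.5, 18.1 and 23.6 CPM, a log2 fold change of -2.04 ± 0.142. For both, the nCas9 means of 4.89 and 4.56 CPM were near those of SpACE.

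At lower levels the same pattern was seen in ABHD1, ADCY4, TAS1R1 and FAM230B. ABHD1, of the alpha/beta hydrolase family, had 0.960, 1.99 and 0.829 CPM in SpACE and 27.8, 11.3 and 25.7 CPM in ABEmax, at -4.08 ± 0.297. ADCY4, an adenylyl cyclase that makes cAMP, had 10 counts in all SpACE libraries together and 343 in those of ABEmax, at -5.20 ± 0.348. Neither gene had overlapping groups. TAS1R1, a subunit of the umami taste receptor, had 3 counts in SpACE and 235 in ABEmax, a ratio of 86.9 in favour of ABEmax with a 95% exact counting interval of 29.4 to 424. FAM230B, a non-coding transcript, had 2 counts in SpACE and 250 in ABEmax, which was 139 times as much in ABEmax (interval 38 to 1150). Such intervals cover counting error only.

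Among the 12 largest falls, 2 genes had another pattern across the groups. MUC19, a gel-forming mucin gene, had 0.747, 1.55 and 0.947 CPM in SpACE, 4.78, 7.00 and 5.78 CPM in ABEmax and 5.92, 6.99 and 7.17 CPM in nCas9. Here SpACE was the low group, and ABEmax and nCas9 overlapped. MUC19 was lower in SpACE against ABEmax at -2.42 ± 0.376 (adjusted p = 2.08e-05) and against nCas9 at -2.61 ± 0.367 (adjusted p = 1.92e-06). OLFM1, which encodes a secreted glycoprotein of nervous tissue, had 0, 0.774 and 0.592 CPM in SpACE and 3.43, 2.29 and 3.08 CPM in ABEmax, while Target-AID stood at 82.2 CPM on average. Its difference between SpACE and ABEmax was -2.67 ± 0.451 (adjusted p = 6.58e-05), on 12 counts in SpACE. All 12 of the largest falls kept their call in each alternative that gave them an adjusted p, those without a library included. For FAM230B, TAS1R1, ADCY4 and MUC19 that was 11 of 12 alternatives. BAG5, a co-chaperone gene of the BAG family chosen after its values were seen, is a further example at a high level. Its mean was 108 CPM in SpACE, 265 CPM in ABEmax and 109 CPM in nCas9, a log2 fold change of -1.29 ± 0.0693 between SpACE and ABEmax.

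**Figure D2:**
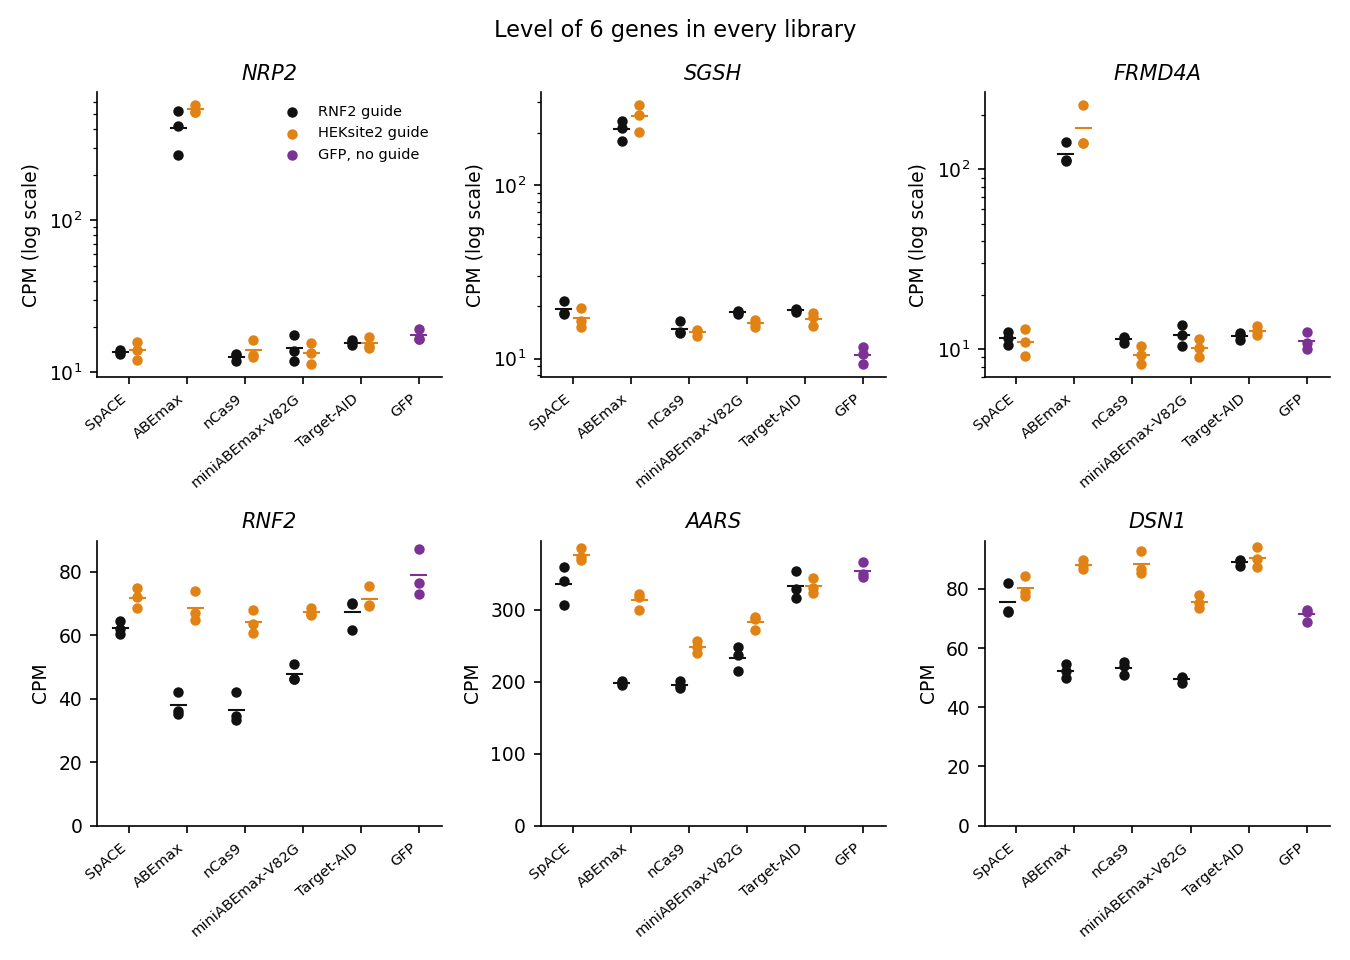
Level in CPM of 6 genes in every library, by construct, with black points for the RNF2 guide, orange points for the HEKsite2 guide, purple points for GFP and a bar at each group mean (log scale in the upper row, linear from 0 in the lower row). NRP2, SGSH and FRMD4A are high only in the 6 ABEmax libraries, and RNF2, AARS and DSN1 are low with the RNF2 guide in ABEmax, nCas9 and miniABEmax-V82G.

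Rises in SpACE were smaller, and most of the largest rested on low counts. Low levels were common among the falls too. A mean log2 CPM of at least 1 was reached by 5 of the 11 genes at least 2-fold higher and by 49 of the 116 at least 2-fold lower. SH2D2A, an adapter gene known from T cells, had 2.35, 3.54 and 4.14 CPM in SpACE and 1.35, 1.21 and 1.80 CPM in ABEmax. The groups did not overlap, and the gene rose by 1.19 ± 0.258 (adjusted p = 0.00149). ANKRD1, a target of the coactivator YAP, had 8.43, 6.63 and 6.99 CPM in SpACE, 4.17, 3.62 and 4.88 CPM in ABEmax and 0.696, 0.499 and 0.897 CPM in nCas9. All SpACE libraries lay above all ABEmax libraries, and both constructs lay above nCas9. ANKRD1 rose by 0.80 ± 0.196 between the editors (adjusted p = 0.00491), by 3.38 ± 0.293 in SpACE against nCas9 and by 2.57 ± 0.336 in ABEmax against nCas9. ANKRD1 was called in all 12 alternatives run and SH2D2A in the 11 that gave it an adjusted p. PHACTR1, a regulator of protein phosphatase 1 and actin, rose by 0.98 ± 0.256 (adjusted p = 0.00895), from 1.73 CPM in ABEmax to 3.44 in SpACE. Its call ended without replicate 3 of SpACE or replicate 1 of ABEmax, with an adjusted p of up to 0.0567.

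The other large rises were ELAC1, which trims the 3′ ends of tRNAs, at 1.08 ± 0.319, the SNARE gene STX11 at 1.03 ± 0.335, the scaffold gene LIN7B at 1.02 ± 0.322, TPGS1 of the tubulin polyglutamylase complex at 0.97 ± 0.31 and the zinc finger gene ZNF658 at 0.81 ± 0.266. Levels of these 5 in SpACE were 2.38 to 4.28 CPM. The list of 12 was completed by 4 spliceosomal RNA genes, RNU5B-1 at 0.94 ± 0.31, RNVU1-6 at 0.94 ± 0.286, RNU5D-1 at 0.91 ± 0.297 and RNU4-2 at 0.80 ± 0.247. These RNA genes have near-identical copies, so their counts are uncertain. Each of these 9 genes lost its call when at least 2 single libraries were left out in turn, among them replicate 3 of ABEmax for all but TPGS1. The highest adjusted p without 1 library, or without both that stood apart, ran from 0.123 for LIN7B to 0.358 for ZNF658.

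RNF2, the gene that the guide addresses, lies at chr1:185045364-185102608. It had 64.4, 62.1 and 60.5 CPM in SpACE, 42.1, 36.2 and 35.3 CPM in ABEmax and 34.6, 42.04 and 33.2 CPM in nCas9. The SpACE libraries lay above all ABEmax and nCas9 libraries, and the latter groups overlapped. RNF2 rose by 0.72 ± 0.0818 in SpACE against ABEmax (adjusted p = 4.34e-08) and by 0.77 ± 0.0821 against nCas9 (adjusted p = 6.5e-09), while ABEmax and nCas9 differed by 0.05 ± 0.088 (adjusted p = 0.771). With the same guide the mean was 47.9 CPM in miniABEmax-V82G and 67.3 CPM in Target-AID, and it was 78.9 CPM in GFP. With the HEKsite2 guide the means were 71.9 CPM in SpACE, 68.6 in ABEmax and 64.1 in nCas9, and SpACE and ABEmax differed by 0.07 ± 0.0764 (adjusted p = 0.677). Thus RNF2 was lower under the RNF2 guide in ABEmax and nCas9 than under the HEKsite2 guide in any of these constructs, as a description of the means.

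Of 23 subunits and partners of Polycomb repressive complex 1 tested, 2 were higher in SpACE and 3 lower, beside 6.17% and 6.89% of all genes, with a median log2 fold change of -0.03. Next to RNF2, PHC2, a polyhomeotic subunit, rose by 0.20 ± 0.0684 (adjusted p = 0.0475) and its relative PHC3 fell by 0.35 ± 0.0895 (adjusted p = 0.00684). The chromobox genes CBX2 and CBX7, whose products read trimethylated histone H3, fell by 0.27 ± 0.0544 and 0.94 ± 0.262 (adjusted p = 0.000803 and 0.0142). CBX2 stood at 79.5, 77.7 and 78.4 CPM in SpACE and 93.2, 90.6 and 99.7 in ABEmax, without overlap. The calls of PHC2, PHC3 and CBX7 ended without replicate 1 of SpACE, and those of PHC2 and CBX7 also without replicate 3 of ABEmax. RING1, the paralog of RNF2, was at 0.14 ± 0.0786 and did not pass (adjusted p = 0.258).

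The same contrast with the HEKsite2 guide uses 6 other libraries and no library of the RNF2 guide. There 988 genes were called (6.76% of those tested), 438 higher (3%) and 550 lower (3.76%) in SpACE, and at least 2-fold in 6 higher (0.0411%) and 84 lower (0.575%) genes. The number called was far lower without replicate 3 of SpACE with that guide, as given in the last section. Of the 1908 genes called with the RNF2 guide, 92.5% had the same sign with the HEKsite2 guide, where the share among all genes tested was 69%. The genes called in the same direction with both guides numbered 547, which is 28.7% of the calls with the RNF2 guide and 55.4% of those with the HEKsite2 guide. Only NME6, of the nucleoside diphosphate kinase family, was called in opposite directions, at 0.24 with the RNF2 guide and -0.24 with the HEKsite2 guide, and it is named because it is the only one. Of the 116 large falls, 107 had the same sign and 55 were called lower there too. Of the 11 large rises, 9 had the same sign, and with the HEKsite2 guide 0 were called higher by edgeR, 0 had an unadjusted p under 0.05 in that direction, and 0 were called higher by DESeq2, which gave no adjusted p for 6 of them. Over the genes tested the log2 fold changes of both guides had a Pearson r of 0.617, and genes are not independent replicates. The falls of NRP2, SGSH, MAST3 and FRMD4A were -5.26, -3.87, -3.74 and -3.94 with the HEKsite2 guide.

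**Figure D3:**
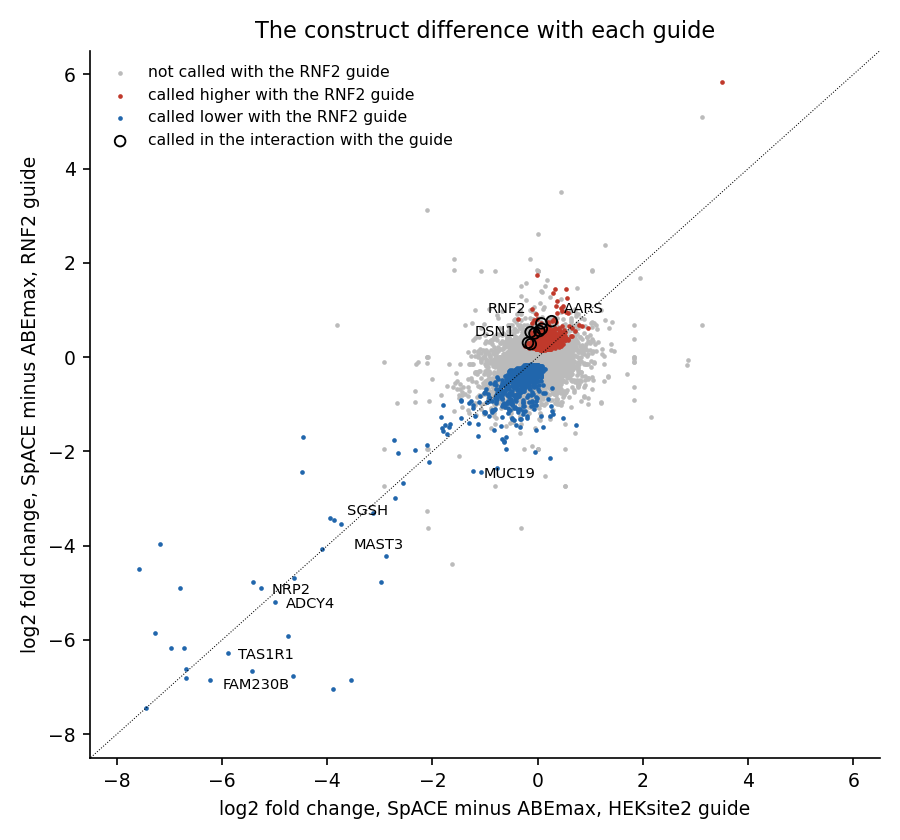
Log2 fold change of SpACE against ABEmax with the RNF2 guide (vertical) and with the HEKsite2 guide (horizontal), 1 point per gene tested, coloured by the call with the RNF2 guide, with a dotted line of equal values. Among the large falls NRP2 and SGSH lie near the line and others, such as MUC19 at -2.42 and -1.23, lie away from it, and the 8 ringed genes, called in the interaction, lie above it.

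Whether the difference between SpACE and ABEmax depended on the guide was tested as an interaction, the difference with the RNF2 guide minus that with the HEKsite2 guide. It was called for 8 genes (0.0547%), all above 0, and 1030 genes had an unadjusted p under 0.05. The number called was smaller or several times larger under some other settings, as given in the last section. DSN1, a kinetochore gene, had 82.03, 72.6 and 72.2 CPM in SpACE, 54.6, 52.3 and 49.97 CPM in ABEmax and 55.3, 54.01 and 50.99 CPM in nCas9 with the RNF2 guide. With the HEKsite2 guide the means were 80.3, 88.2 and 88.3 CPM, and SpACE and ABEmax did not pass the test there (adjusted p = 0.164). The interaction was 0.67 ± 0.0835 for DSN1 (adjusted p = 1.22e-05). EIF2S2, the beta subunit of the initiation factor eIF2, had 281, 267 and 263 CPM in SpACE and 178, 182 and 175 CPM in ABEmax with the RNF2 guide, against means of 300 and 284 CPM with the other guide. Its interaction was 0.53 ± 0.0789 (adjusted p = 0.00041). AARS, the cytosolic alanyl-tRNA synthetase, differed with both guides, by 0.76 ± 0.0586 and by 0.27 ± 0.0576, and the difference between them was 0.50 ± 0.082 (adjusted p = 0.00192). For RNF2 itself the interaction was 0.65 ± 0.112 (adjusted p = 0.00341). These 4 genes were called in every alternative run. In DSN1, EIF2S2, AARS and RNF2 alike, ABEmax and nCas9 with the RNF2 guide did not pass the test, with log2 differences of -0.03, 0.03, 0.02 and 0.05 (adjusted p = 0.81, 0.803, 0.889 and 0.771).

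The other 4 interaction genes were AKAP8L, an anchoring protein of protein kinase A, at 0.41 ± 0.0774, the ciliary gene IQCB1 at 0.52 ± 0.1, RINT1, which acts in vesicle transport, at 0.49 ± 0.0986, and the intraflagellar transport gene CLUAP1 at 0.56 ± 0.119 (adjusted p = 0.0142, 0.0142, 0.0281 and 0.0494). Their calls ended in 5, 6, 8 and 11 of 17 alternatives, and all 4 ended without replicate 1 of SpACE with the RNF2 guide. IQCB1 stood at 78.4, 70.8 and 81.3 CPM in SpACE and 52.9, 53.7 and 50.2 CPM in ABEmax with the RNF2 guide, without overlap, and at 79.5 and 77.9 CPM on average with the HEKsite2 guide.

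Heat shock genes moved in both directions, 5 of 25 higher (20%) and 4 lower (16%) in SpACE, beside 6.17% and 6.89% of all genes tested, with a median of 0.02. These genes encode chaperones that refold proteins. Against nCas9 most rose with both editors. In SpACE 21 of the 25 were higher and 1 lower, beside 8.03% and 6.68% of all genes, with a median of 0.75. In ABEmax 20 were higher and 1 lower, beside 6.51% and 4.66%, with a median of 0.61. HSPA6, an inducible HSP70 gene, had 108, 99.7 and 90.8 CPM in SpACE, 164, 169 and 169.8 CPM in ABEmax and 11.8, 11.5 and 13.3 CPM in nCas9. SpACE lay between the groups without overlap, and HSPA6 fell by 0.75 ± 0.11 against ABEmax (adjusted p = 8e-06). The HSP40 co-chaperone DNAJB6 fell by 0.35 ± 0.0523 and the co-chaperone BAG3 by 0.26 ± 0.0746 (adjusted p = 1.25e-05 and 0.0174). HSP90AA1, an inducible HSP90 gene, rose from 2173, 2132 and 1984 CPM in ABEmax to 2944, 2602 and 2759 CPM in SpACE, by 0.40 ± 0.0647, and its activator AHSA1 rose by 0.34 ± 0.0668 (adjusted p = 3.49e-05 and 0.000464). HSPA4L and the mitochondrial chaperonin HSPD1 rose by 0.30 ± 0.0754 and 0.26 ± 0.0603. The near-identical genes HSPA1B and HSPA1A were called in opposite directions, at 0.26 ± 0.0583 and -1.28 ± 0.292, and their counts are uncertain because reads can be shared. HSPA1B lost its call without both of the libraries that stood apart (adjusted p = 0.0521). Values near 0 were found for HSPH1 (0.06), DNAJB1 (-0.10) and HSPA8 (0.12), which did not pass.

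The integrated stress response, which raises translation of the transcription factor ATF4 when eIF2 is phosphorylated, had 4 of 35 genes higher (11.4%) and 5 lower (14.3%) in SpACE, with a median of -0.08, where all genes had 6.17% and 6.89%. Among the transcription factors, DDIT3, also called CHOP, had 26.4, 30.3 and 27.6 CPM in SpACE, 48.8, 51.9 and 46.8 CPM in ABEmax and 30.7, 31.8 and 31.8 CPM in nCas9. The ABEmax libraries were the high ones, and DDIT3 fell by 0.81 ± 0.0793 in SpACE (adjusted p = 9.11e-10). ATF4 fell by 0.27 ± 0.0561 and ATF3 was at 0.16 ± 0.0721 without passing (adjusted p = 0.000807 and 0.143). Among the enzymes, CTH, which makes cysteine from cystathionine, had 89.7, 73.6 and 77.9 CPM in SpACE, 143, 138 and 131 CPM in ABEmax and 81.2, 75.3 and 80.6 CPM in nCas9. It fell by 0.77 ± 0.069 (adjusted p = 7.04e-11), and SpACE overlapped with nCas9. ASNS, the asparagine synthetase, went the other way, with 447, 404 and 412 CPM in SpACE, 331, 318 and 282 CPM in ABEmax and 251, 250.2 and 243 CPM in nCas9, a rise of 0.44 ± 0.0615 (adjusted p = 3.83e-06). The serine synthesis gene PSAT1 and the mitochondrial folate gene MTHFD2 rose by 0.23 ± 0.0624 and 0.17 ± 0.0565 (adjusted p = 0.0125 and 0.0386). The cystine transporter SLC7A11 and the sestrin SESN2 fell by 0.43 ± 0.0727 and 0.44 ± 0.0736 (adjusted p = 6.96e-05 and 6.55e-05). The count of higher genes dropped to 1 without replicate 1 of SpACE and to 2 without replicate 3 of ABEmax, while at least 5 members were lower in each such fit. Against nCas9, 22 of the 35 were higher in SpACE and 0 lower, beside 8.03% and 6.68% of all genes, with a median of 0.33. In ABEmax 26 were higher and 0 lower, beside 6.51% and 4.66%, with a median of 0.35.

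Of 20 cytosolic aminoacyl-tRNA synthetases, which charge tRNAs with amino acids, AARS was higher, CARS was lower and 18 did not pass, with a median of 0.04. A share of 5% in each direction is no more than the 6.17% and 6.89% of all genes. AARS had 360.1, 340.5 and 307 CPM in SpACE, 195, 201 and 198 CPM in ABEmax and 191, 201 and 195 CPM in nCas9. The lowest SpACE library was above the highest of the other 6, and AARS rose by 0.76 ± 0.0586 (adjusted p = 6.35e-13). CARS, the cysteinyl-tRNA synthetase, had 172, 164 and 155 CPM in SpACE, 219, 222 and 196 CPM in ABEmax and 156, 151 and 147 CPM in nCas9, a fall of 0.37 ± 0.0579 (adjusted p = 2.08e-05). GARS at 0.00 and DARS at 0.00 were among the members with values at 0.

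In the unfolded protein response of the endoplasmic reticulum, 1 of 20 genes was higher (5%) and 3 were lower (15%), beside 6.17% and 6.89% of all genes. SYVN1, the ubiquitin ligase that clears misfolded proteins there, fell from 19.5, 19.2 and 19.6 CPM in ABEmax to 12.9, 14.04 and 13.7 CPM in SpACE, by 0.52 ± 0.109 (adjusted p = 0.00101). The sensors ATF6 and ERN1 were at 0.18 ± 0.0528 and -0.44 ± 0.149 and CRELD2 at -0.25 ± 0.0853, calls that ended in 7 or 8 of 12 alternatives each, those without replicate 1 of SpACE or replicate 3 of ABEmax included. Of 29 immediate early genes, which respond quickly to signals, 3 were higher (10.3%) and 4 lower (13.8%). The MAP kinase phosphatase DUSP8 and the nuclear receptor NR4A1 fell by 0.69 ± 0.132 and 0.46 ± 0.102 (adjusted p = 0.000416 and 0.00183), and IER2 by 0.29 ± 0.1. DUSP1, DUSP4 and MYC were higher by 0.29, 0.51 and 0.37 on the log2 scale. FOS at -0.17, JUN at -0.06 and EGR1 at 0.15 did not pass. With any 1 of the 6 libraries left out, at most 1 member was called higher.

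Among 15 genes of the oxidative stress response driven by NRF2, 4 were higher (26.7%) and 1 lower (6.67%), beside 6.17% and 6.89% of all genes. HMOX1, the heme oxygenase, had 161, 144 and 136 CPM in SpACE, 102, 88.5 and 100.3 CPM in ABEmax and 64.5, 61.5 and 71.3 CPM in nCas9. The 3 groups did not overlap, with SpACE highest, and HMOX1 rose by 0.60 ± 0.0886 against ABEmax (adjusted p = 9.69e-06). The malic enzyme ME1, GCLM of glutathione synthesis and PGD of the pentose phosphate pathway rose by 0.28, 0.26 and 0.20, while NQO1 stood at -0.03 and TXNRD1 at -0.05 without passing. The call of PGD ended in 5 of 12 alternatives and that of GCLM without replicate 2 of ABEmax. That of ME1 ended without both libraries that stood apart. The count of higher members was 2 to 4 with 1 library left out and 2 without both. The only member called lower was SLC7A11, given above. Of 22 targets of p53, 0 were higher and 5 were lower (22.7%), with a median of -0.12. AEN, an apoptosis-enhancing nuclease, had 278, 310.2 and 261 CPM in SpACE and 411, 395 and 355 CPM in ABEmax, a fall of 0.45 ± 0.0774 (adjusted p = 8.37e-05). SESN2, also a member here, PHLDA3 at -0.45, the death receptor TNFRSF10B at -0.34 and the translesion polymerase POLH at -0.31 were the others. CDKN1A at -0.19 and MDM2 at -0.08, the textbook targets, did not pass. The count of lower members was 2 to 5 with 1 library left out, and 3 without replicate 1 of SpACE.

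Base excision and mismatch repair remove the uracil, inosine and mispairs that deaminases leave in DNA. Of 33 such genes, 3 were higher (9.09%) and 2 lower (6.06%) in SpACE, near the 6.17% and 6.89% of all genes. UNG, the main uracil glycosylase, was at 0.19 ± 0.0744 (adjusted p = 0.0891) and MPG, the glycosylase of inosine, at 0.32 ± 0.146 (adjusted p = 0.14), and neither passed. The thymine glycosylase TDG rose by 0.22, the mismatch sensor MSH6 by 0.21 and the repair dioxygenase ALKBH2 by 0.39. PARP2 fell by 0.27 ± 0.0711 and XRCC1 by 0.23 ± 0.0774, calls that ended in 2 and 8 of 12 alternatives. The count of higher members was 1 without replicate 1 of SpACE, 1 without replicate 3 of ABEmax and 0 without both. Of 13 cellular deaminases tested, ADAT3, the partner of the tRNA adenosine deaminase ADAT2, fell by 0.56 ± 0.175 (adjusted p = 0.0287), which did not hold without either of those libraries. ADAR stood at -0.09 and APOBEC3B at 0.31 without passing.

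In cholesterol synthesis 7 of 28 genes were higher (25%) and 3 lower (10.7%), beside 6.17% and 6.89% of all genes. SREBF1, the gene of the lipid regulator SREBP1, had 33.2, 35.9 and 36.1 CPM in SpACE, 56.00, 59.2 and 58.5 CPM in ABEmax and 34.5, 34.4 and 44.3 CPM in nCas9. ABEmax was the high group, and SREBF1 fell by 0.72 ± 0.0997 in SpACE (adjusted p = 2.73e-06). The enzymes CYP51A1, FDPS and SQLE rose by 0.24, 0.27 and 0.21 and SC5D fell by 0.22 ± 0.061. The count of higher members was 4 without replicate 1 of SpACE and 2 without replicate 3 of ABEmax. Of 24 genes of glycolysis and hypoxia, 4 were higher (16.7%) and 1 lower (4.17%), with 22 values above 0 and a median of 0.15. The glucose transporter SLC2A1 rose from 27.6, 26.7 and 26.9 CPM in ABEmax to 40.8, 38.02 and 35.4 CPM in SpACE, by 0.49 ± 0.089 (adjusted p = 0.000161). P4HA1, a collagen prolyl hydroxylase, rose by 0.32 ± 0.0699 (adjusted p = 0.00152). LDHA and PFKP were higher by 0.23 and 0.22, and VEGFA fell by 0.26 ± 0.0699, calls that ended without 1 of several libraries. Of 13 YAP and TEAD targets, ANKRD1, given above, and AMOTL1 at 0.21 ± 0.0645 were higher (15.4%) and 0 were lower. Only 6 of the 13 values were above 0, with a median of -0.02, and CTGF at -0.59 and CYR61 at -0.20 did not pass. The call of AMOTL1 ended in 4 of 12 alternatives. In the interferon and cytokine list, with 17 genes tested, NFKBIA, the inhibitor of NF-kB, rose by 0.55 ± 0.0979 (adjusted p = 0.000144). ICAM1, with 12 counts in SpACE and 31 in ABEmax, was lower at -1.49 ± 0.448, a call lost in 6 of 11 alternatives. Of 4 metallothionein genes and regulators of zinc tested, the zinc exporter SLC30A1 was lower at -0.31 ± 0.107, a call lost in 9 of 12 alternatives.

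Among genes of the ribosome, the proteasome and respiratory complex I all calls were higher in SpACE than in ABEmax with the RNF2 guide, by small amounts. Fewer genes were called without either of the libraries that stood apart. Of 37 subunits of respiratory complex I, the first enzyme of the mitochondrial electron chain, 11 were higher (29.7%) and 0 lower, beside 6.17% and 6.89% of all genes, with 35 values above 0 and a median of 0.18. NDUFS4 stood at 43.3, 40.7 and 38.01 CPM in SpACE and 31.6, 32.4 and 27.2 CPM in ABEmax, NDUFB5 at 53.3, 52.2 and 53.5 CPM and 40.9, 39.2 and 36.1 CPM. Neither gene had overlapping groups, and they rose by 0.42 ± 0.0742 and 0.45 ± 0.0833 (adjusted p = 0.000133 and 0.000235). NDUFV2 and NDUFB2 rose by 0.40 and 0.38. The count was 6 without replicate 1 of SpACE, 5 without replicate 3 of ABEmax and 4 without both. Against nCas9 the median was -0.01 in SpACE, with 2 higher and 1 lower, and -0.20 in ABEmax, with 0 higher and 9 lower. With the HEKsite2 guide 4 were higher in SpACE than in ABEmax and 0 lower, with a median of 0.08. Of 78 cytosolic ribosomal proteins 11 were higher (14.1%) and 0 lower, with 75 values above 0 and a median of 0.17. RPS3, of the small subunit, stood at 1238, 1246 and 1195 CPM in SpACE and 1027, 1070 and 952 CPM in ABEmax, a rise of 0.27 ± 0.0758 (adjusted p = 0.0147). Here the count was 2 without replicate 1 of SpACE and 0 without replicate 3 of ABEmax, and 30 with only the groups compared in the fit. Against nCas9 the median was 0.03 in SpACE, with 0 higher and 1 lower, and -0.13 in ABEmax, with 0 higher and 9 lower. With the HEKsite2 guide 0 of the 78 were called between SpACE and ABEmax, with a median of 0.04. The interaction with the guide was called for 0 of the 78.

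Of 74 mitochondrial ribosomal proteins, 10 were higher (13.5%) and 0 lower, beside 6.17% and 6.89% of all genes, with a median of 0.11, and the count was 2 without replicate 1 of SpACE and 1 without replicate 3 of ABEmax. MRPS16 stood at 127, 122 and 126 CPM in SpACE and 101, 105 and 106 CPM in ABEmax and rose by 0.27 ± 0.0568 (adjusted p = 0.00127). Of 31 proteasome subunits, 6 were higher (19.4%) and 0 lower, with a median of 0.11, and 1 and 2 remained called without the same libraries. PSMD14, the deubiquitinase of the proteasome lid, stood at 198, 183 and 185 CPM in SpACE and 151, 151 and 138 CPM in ABEmax and rose by 0.36 ± 0.0615 (adjusted p = 7.69e-05). MRPS16 and PSMD14 were called in all alternatives run. The medians against nCas9 were -0.003 in SpACE and -0.10 in ABEmax for mitochondrial ribosomal proteins, and 0.07 and -0.05 for the proteasome. With the HEKsite2 guide 3 mitochondrial ribosomal proteins were higher in SpACE than in ABEmax and 1 lower. For the proteasome 1 was higher there and 0 lower. The mean deviation of the complex I list from the 6 libraries was 0.13 in replicate 1 of SpACE and -0.19 in replicate 3 of ABEmax, and between -0.06 and 0.09 in the other 4 libraries, on the log2 scale.

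Genes of RNA surveillance and splicing had calls only in the other direction in the fit of all libraries. Of 17 factors and targets of nonsense-mediated decay, which destroys transcripts with early stop codons, 0 were higher and 8 lower (47.1%), beside 6.17% and 6.89% of all genes, with a median of -0.22. SMG5, which recruits decay enzymes, had 303, 285 and 281 CPM in SpACE, 371, 366 and 373 CPM in ABEmax and 357, 328 and 369.8 CPM in nCas9. Both comparison groups lay above SpACE, and SMG5 fell by 0.35 ± 0.0578 against ABEmax (adjusted p = 4.59e-05). SMG9, a partner of the kinase SMG1, had 35.4, 31.7 and 30.9 CPM in SpACE and 46.2, 41.3 and 43.8 CPM in ABEmax and fell by 0.42 ± 0.085 (adjusted p = 0.000759). The helicase UPF1 and the known target NAT9 fell by 0.30 ± 0.0736 and 0.36 ± 0.0786 (adjusted p = 0.00587 and 0.00179). The count was 6 without replicate 1 of SpACE and 4 without replicate 3 of ABEmax, and the call of UPF1 ended without the latter.

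Of 19 SR proteins, which direct splice site choice, and CLK kinases, which phosphorylate them, 0 were higher and 7 lower (36.8%), beside 6.17% and 6.89% of all genes, with a median of -0.17. CLK4 had 26.03, 25.1 and 27.5 CPM in SpACE, 39.7, 42.02 and 38.5 CPM in ABEmax and 27.9, 28.8 and 31.00 CPM in nCas9. ABEmax was the highest group without overlap, and CLK4 fell by 0.62 ± 0.0985 in SpACE (adjusted p = 3.19e-05). CLK1 had 66.6, 62.2 and 73.2 CPM in SpACE, 90.4, 96.8 and 88.2 CPM in ABEmax and 57.5, 64.2 and 59.8 CPM in nCas9 and fell by 0.45 ± 0.0954 (adjusted p = 0.00117). PNISR, a nuclear protein that binds SR proteins, fell from 96.9, 111 and 102 CPM to 69.5, 63.3 and 69.7 CPM, by 0.61 ± 0.13 (adjusted p = 0.00118). CLK3 and SRSF1 fell by 0.27 ± 0.0821 and 0.20 ± 0.0598, and their calls ended in 4 of 12 alternatives. SRSF3 at 0.12 and SRSF7 at -0.02 did not pass. Without both libraries that stood apart 6 members of this list were called lower.

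**Figure D4:**
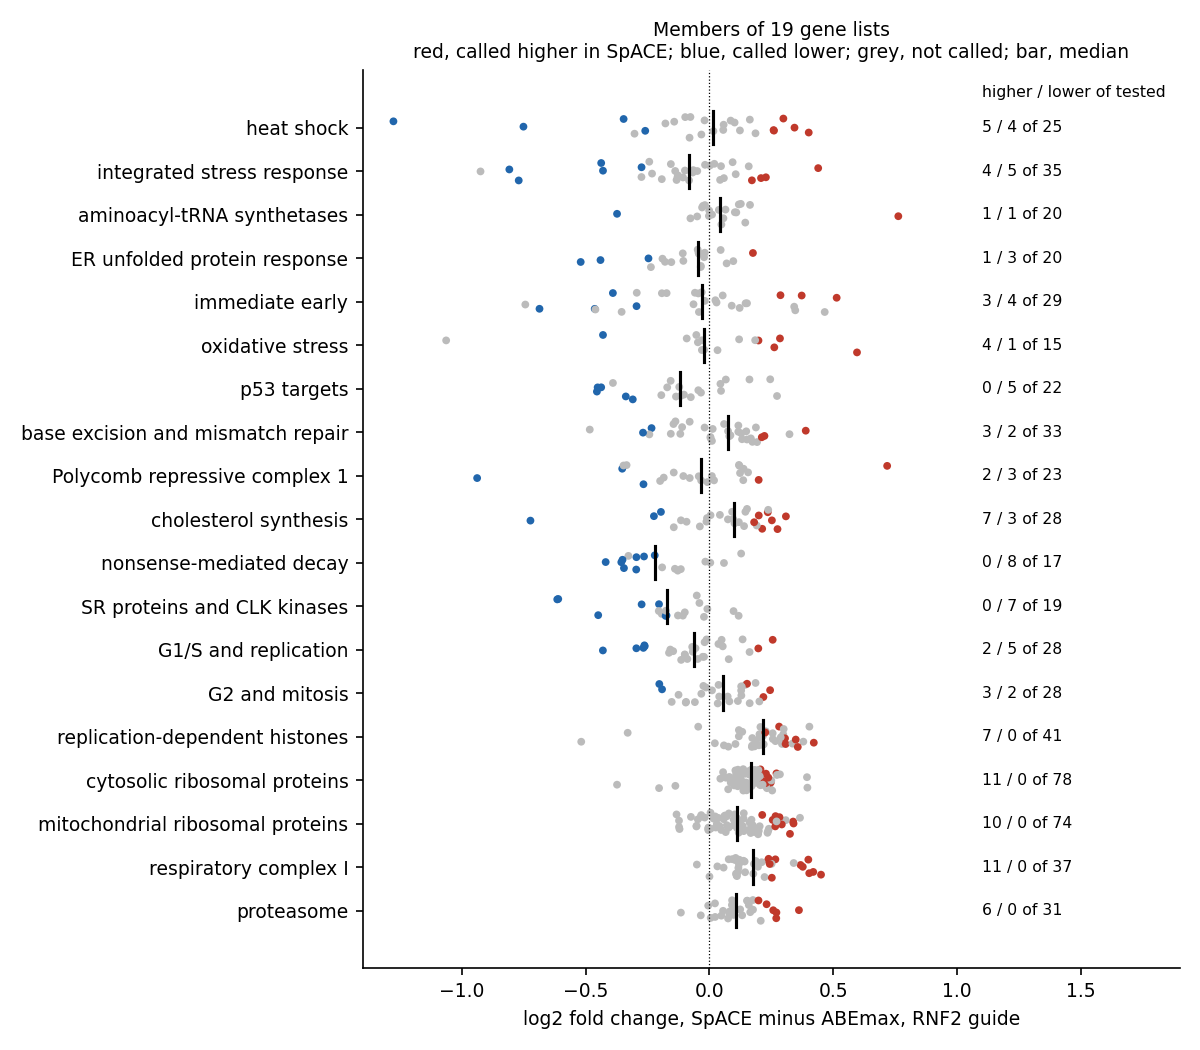
Log2 fold change of SpACE against ABEmax with the RNF2 guide (horizontal) for the tested members of 19 gene lists (rows), 1 point per gene, red where called higher, blue where called lower, grey where not called, with a black bar at the median and the counts at the right. Complex I, ribosomal protein, proteasome and histone genes lie mostly to the right of 0, nonsense-mediated decay and SR and CLK genes to the left, and the stress lists on both sides.

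Cell cycle genes were mixed. Of 28 genes of G1/S and replication, 2 were higher (7.14%) and 5 lower (17.9%), beside 6.17% and 6.89% of all genes. E2F1, the transcription factor of S-phase genes, had 86.4, 89.8 and 87.4 CPM in SpACE and 121, 115 and 119 CPM in ABEmax, without overlap, and fell by 0.43 ± 0.0576 (adjusted p = 1.61e-06). CDT1, CCNE1 and UHRF1 fell by 0.30 ± 0.0831, 0.27 ± 0.0784 and 0.26 ± 0.0656. The calls of CDT1 and CCNE1 ended without replicate 1 of SpACE and without replicate 3 of ABEmax, and that of UHRF1 without replicate 3 of SpACE. The helicase subunit MCM7 rose by 0.26 ± 0.0578 (adjusted p = 0.00233), a call that ended without both libraries that stood apart. The other MCM2 to MCM6 genes lay between -0.11 and 0.05. Of 28 genes of G2 and mitosis, 3 were higher (10.7%) and 2 lower (7.14%), among them CCNB2 at 0.22 ± 0.06 and the spindle gene PRC1 at -0.20 ± 0.0574, and 0 remained called higher without replicate 3 of ABEmax. Of 41 replication-dependent histone genes tested, 7 were higher (17.1%) and 0 lower, with 38 values above 0 and a median of 0.22. HIST2H2BE had 268, 295 and 282 CPM in SpACE and 214, 189 and 228 CPM in ABEmax and rose by 0.42 ± 0.11 (adjusted p = 0.00833), and the linker histone HIST1H1E rose by 0.31 ± 0.0949. The histone count was 4 without replicate 1 of SpACE, 3 without replicate 3 of ABEmax and 21 with only the groups compared in the fit. With the HEKsite2 guide the histone list lay on the other side, with 7 of 41 values above 0 and a median of -0.16. There 1 histone gene was called higher and 2 lower, and the interaction with the guide was called for 0 of the 41. Histone genes are near-identical within their families, so their counts are uncertain.

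Of 30 small and nuclear non-coding RNAs tested, 4 were higher (13.3%) and 1 lower (3.33%), beside 6.17% and 6.89% of all genes, with a median of 0.45. RNU4-1 stood at 175, 173 and 198 CPM in SpACE, 99.7, 119 and 112 CPM in ABEmax and 143, 196 and 102 CPM in nCas9, and rose by 0.72 ± 0.25 (adjusted p = 0.0485). SpACE and ABEmax did not overlap, and nCas9 overlapped with both. The nuclear RNA NEAT1, a scaffold of paraspeckles, was lower at -0.54 ± 0.165 (adjusted p = 0.0256), with 60.6, 91.3 and 91.9 CPM in SpACE and 94.1, 113 and 146 CPM in ABEmax. Its call ended by DESeq2 (adjusted p = 0.0687), without replicate 1 of SpACE (adjusted p = 0.207), without replicate 3 of ABEmax (adjusted p = 0.24) and without both, where the difference was -0.18 (adjusted p = 0.643). The count of higher members was 1 without replicate 1 of SpACE, 0 without replicate 3 of ABEmax, 1 by DESeq2 and 18 with only the groups compared in the fit. The list also varied within groups, its mean deviation being -0.03 in replicate 1 of SpACE against 0.25 and 0.36 in the others. With the HEKsite2 guide 0 of the 30 were called, and the median was -0.02.

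Genes of the growth hormone and beta-globin clusters were followed because they stand out between constructs. Whether their reads come from the genes of the cells or from the transfected plasmids was not tested. CSH2, a placental lactogen gene whose near-identical relatives make its counts uncertain, had 1217, 1014 and 1124 CPM in SpACE, 1982, 1935 and 2161 CPM in ABEmax and 2118, 1829 and 2035 CPM in nCas9. SpACE was below both without overlap, and CSH2 fell by 0.86 ± 0.0948 against ABEmax (adjusted p = 2.26e-08) and by 0.83 ± 0.0948 against nCas9. Its mean was 3152 CPM in GFP and 0.177 CPM in Target-AID, and the related CSH1 had 0 counts in these libraries. HBB, the adult beta-globin gene, had 22 counts in SpACE, nearly all in replicate 2 at 2.32 CPM, and 0 in ABEmax, so it was at least 6.61-fold higher against a floor of 3 counts over the group. It was called (adjusted p = 0.03), but not without replicate 2 of SpACE or any single ABEmax library, and its mean in Target-AID was 4488 CPM.

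The genes called higher in SpACE had shorter transcripts and a lower GC content than those called lower. A transcript was found in GENCODE 29 for 13834 genes, 94.7% of those tested. The median length of the longest transcript was 3544 bases for genes called higher, 4307 bases for genes called lower and 3629 bases for all, and the median GC content was 43.7%, 51.5% and 48.2%. With the genes in 5 equal bins of GC content, from the lowest to the highest, the share of genes called higher went from 10.2% to 2.46%, and that of genes called lower from 5.42% to 9.40%. From the shortest to the longest of 5 bins of length the share called lower went from 3.65% to 8.78%. Over genes, Spearman's rho of the log2 fold change was -0.129 with length and -0.155 with GC content, and with the HEKsite2 guide it was 0.0354 and -0.248. The relation with length thus differed in sign between the guides and that with GC content did not, as a description over genes that share libraries. Its part in the counts of the gene lists was not tested.

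**Figure D5:**
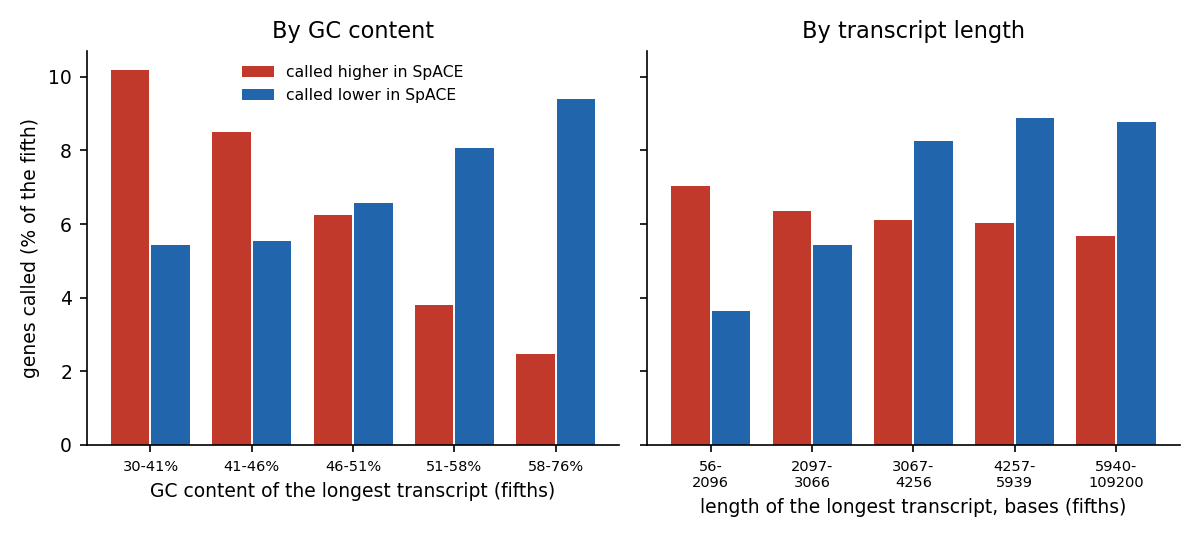
Share of the genes in each of 5 equal bins that were called higher (red) or lower (blue) in SpACE against ABEmax with the RNF2 guide, by GC content (left) and length in bases (right) of the longest transcript. The red bars fall from 10.2% to 2.46% with GC content while the blue bars rise from 5.42% to 9.40%.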

How the data were processed

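RNA-seq of total RNA gave, per the labels' protocols, stranded libraries of sorted GFP-positive HEK293T cells. The deposited table holds whole read counts per gene symbol for 33 libraries, made by the authors. The submitters' processing notes name STAR, GATK 3.8.1, Picard 2.7 and GRCh38 (hg38). The sources used here do not name the counting tool, the annotation or the strand setting, so reads of overlapping antisense genes may not be separated.

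Counts were analysed in R 4.3.3 with edgeR 4.0.16 (filterByExpr, TMM scaling, quasi-likelihood F-test). The model had a mean for each of 11 groups of 3 libraries, with 22 residual degrees of freedom, and p-values were adjusted over 14613 genes by Benjamini-Hochberg, with a threshold of 0.05. The code was tested on simulated data. Values after ± are standard errors of log2 fold changes. Totals were 6790209 to 11200406 counts per library. DESeq2 1.42.0, RLE scaling, no filter, only the groups compared, a replicate block and leaving out each library were alternatives, and leaving out 2 libraries together was added after seeing the data.

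Named genes are the 12 largest rises and falls that were called, had groups without overlap and averaged at least 1 in log2 CPM, up to 5 called genes per list by smallest p, RNF2, the growth hormone and globin clusters, and the interaction genes. Interaction genes past the first 5, further called members of lists and well-known members that did not pass were added after their values were seen. The comparison, its members and the gene lists were chosen with earlier results of these data known. Positions are from GENCODE 29 on GRCh38. No column lacked a sample. Some items are not reported here.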

Additional observations from a re-analysis of the deposited data

Results flagged for a closer look

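The difference between SpACE and ABEmax was not the same with the RNF2 guide and the HEKsite2 guide in 8 genes, by edgeR's test of the interaction. On the log2 scale the difference with the RNF2 guide was larger by 0.67 for DSN1, 0.53 for EIF2S2, 0.50 for AARS, 0.65 for RNF2, 0.41 for AKAP8L, 0.52 for IQCB1, 0.49 for RINT1 and 0.56 for CLUAP1. The adjusted p ran from 1.22e-05 for DSN1 to 0.0494 for CLUAP1, with 3 libraries per group.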

How the results depend on the processing

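Of 62 counts of called genes under other settings, 45 stayed within 1.5 times the reported count. Of 1800 values for single genes, 359 were no longer called and 1 was newly called. A change of sign was counted only where the gene was called in the reported or the other fit, and 0 were found. Genes with no call in either fit could change sign, as did APOB, at -0.13 as reported and up to 0.77 in an alternative. SpACE against ABEmax with the RNF2 guide gave 1883 calls with RLE scaling, 1905 with no filter, 1531 by DESeq2 and 1888 with only the groups compared, 1035 to 1415 without 1 library and 741 without both libraries that stood apart. Without 1 library the calls were 428 to 1112 for the HEKsite2 guide (428 without replicate 3 of SpACE), 4 to 13 for the interaction (4 without replicate 1 of SpACE with the RNF2 guide), 1435 to 1770 for SpACE against nCas9, and 834 to 1314 for ABEmax against nCas9 (834 without replicate 2 of nCas9). The interaction had 65 calls with no filter, 21 by DESeq2 and 14 with only the groups compared, against 8 reported, and the cause was not tested. Same-numbered replicates of SpACE and ABEmax with the RNF2 guide had correlations of deviations of 0.215, -0.0376 and 0.105. Their different-numbered replicates had values from -0.22 to 0.144. Against nCas9, same-numbered replicates had 0.135, -0.0235 and 0.128 for SpACE and 0.122, 0.051 and 0.17 for ABEmax. The labels state no pairing and the main model holds none, but whether same-numbered replicates belong together is not settled. With a replicate block the calls were 2086, 1110 with the HEKsite2 guide, 21 for the interaction, 2368 for SpACE against nCas9 and 1806 for ABEmax against nCas9. With 3 libraries per group, genes with few counts, such as TAS1R1 and HBB, are limited by depth.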
